A study of Mus musculus with 7 samples.

Results

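OT-I cells that had divided while undergoing deletional tolerance in RIP-OVAhi mice were compared with OT-I cells that had divided under lymphopenia in Rag-/- mice. The comparison used 3 of the 7 arrays in the series, 2 for RIP-OVAhi and 1 for Rag, chosen by their labels. All 34958 of the 45101 probe sets that carry 1 gene symbol entered it, which stand for 18194 genes. Of these, 8371 reached log2 5 on at least 1 of the 7 arrays and were tested. Levels below log2 5 are called near background.

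OT-I cells are CD8 T cells that share 1 transgenic receptor for an ovalbumin peptide. In all groups they were CD44lo, carried the Ly5.1 marker, had been labelled with CFSE, a dye diluted with every division, and were injected into mice listed as C57BL/6. The RIP-OVAhi group (n = 2) was taken 60 h after transfer from sacral and pancreatic lymph nodes, each array from a pool of 20 mice; ovalbumin there is driven by the rat insulin promoter, which is active in the pancreatic islets. The Rag group (n = 1) was taken after 5 days from the spleens of 10 Rag-/- mice, which have no T or B cells of their own, and whose labels name no ovalbumin. Both groups were sorted as CD8+ Ly5.1+ cells that had divided at least 2 times. For context, cells primed with ovalbumin-coated splenocytes and LPS (OCS/LPS, n = 2, 60 h, divided at least 2 times) and undivided naive cells from B6 mice (n = 2, 60 h) were read from the same table, both from spleens of 10 mice. Time after transfer, tissue, host and antigen all differ between RIP-OVAhi and Rag, and their parts in any difference cannot be told apart. The labels give the gate no upper limit on divisions.

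In peripheral tolerance, antigen from healthy tissue is carried to the draining lymph node, where CD8 T cells that recognise it divide and later die without becoming protective effectors. Signalling through the T cell receptor induces the EGR and NR4A transcription factors, inhibitory receptors and, when it persists, regulators linked to unresponsiveness. Lymphopenia-induced proliferation is driven mainly by interleukin-7 and weak recognition of self peptides, and the dividing cells acquire features of memory cells.

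The 2 RIP-OVAhi arrays correlated at r = 0.992 across the tested genes and lay more than 2-fold apart in 35 of them. The RIP-OVAhi mean lay more than 2-fold from the Rag array in 1112 genes. The share of probe sets at log2 5 or more ran from 33.7% to 34.5% over the 7 arrays. None of the 10 tested CD8 T cell identity genes was called by limma (1 had an unadjusted p under 0.05; 1 was higher without the naive arrays and 1 lower with the median over probe sets), and all 10 lay above log2 9 on every array. Whether the 2 pools of a group were made independently is not in the labels, and the p-values cover only the spread between these arrays. Rag has a single array, and the fit gives it the spread of the replicated groups.

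A gene was called when limma's adjusted p was under 0.05 and both RIP-OVAhi arrays lay on the same side of the Rag array. By this rule 802 genes were higher in RIP-OVAhi (9.58% of those tested) and 580 were lower (6.93%). Together they make 16.5% of the tested genes, the share to set beside the list counts below. Of the higher genes 584 differed by at least 2-fold and 78 by at least 8-fold, and of the lower genes 355 and 38 did. The median difference over all tested genes was 0.02 on the log2 scale. Without RIP-OVAhi replicate 1 or 2 the counts were 237 and 231 higher and 144 and 140 lower. Without either OCS/LPS array they were 449 higher and 259 lower, and without either naive array 1405 and 1125. A gene's value is that of its brightest probe set. With the median over its probe sets, 25 of the 121 called and named genes that could be set against it moved by more than 1.5 times and 8 lost their call, as given beside the genes described. A fit with the replicate number as a block called 613 and 416.

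**Figure D1:**
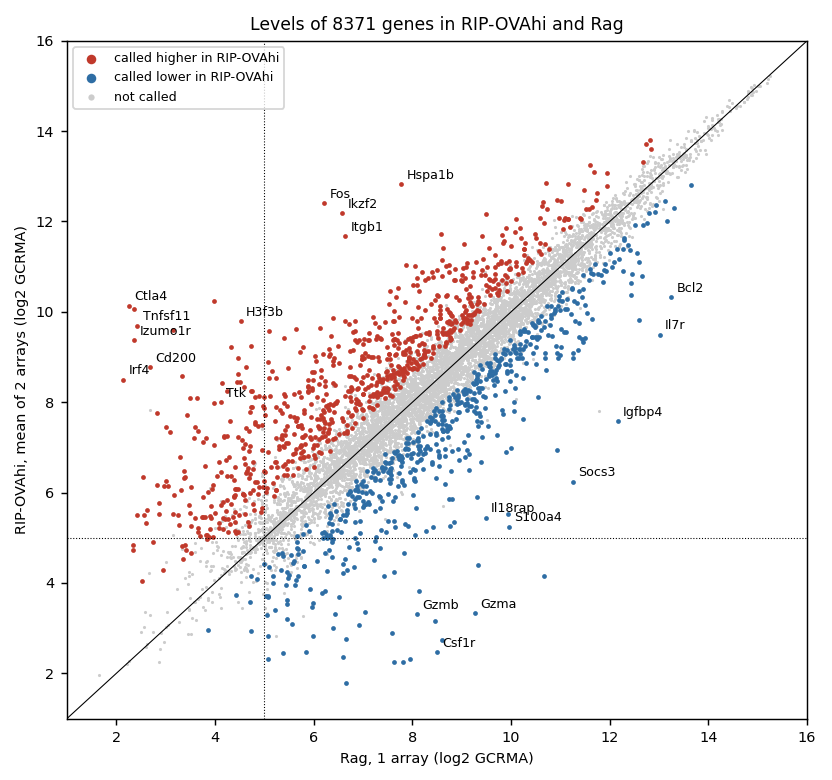
Level of each of the 8371 tested genes in RIP-OVAhi (vertical axis, mean of 2 arrays) against Rag (horizontal axis, 1 array), both as log2 GCRMA values, with dotted lines at log2 5. Red points were called higher (802) and blue points lower (580) in RIP-OVAhi, and the named genes farthest from the diagonal include Ctla4, Tnfsf11 and Izumo1r above it and Gzma, Gzmb and Csf1r below it.

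Several genes that answer to the T cell receptor were higher in RIP-OVAhi. Nr4a2, 1 of 3 NR4A orphan nuclear receptors that are induced by receptor signalling and restrain T cell responses, lay at 7.55 and 7.98 in RIP-OVAhi, against 2.82 in Rag. It rose by 4.95 (SE 0.21, adjusted p = 0.000236), which is at least 6.80-fold when the near-background Rag value is set to log2 5. Nr4a3 lay at 9.62 and 9.23 in RIP-OVAhi, compared with 5.39 in Rag (difference 4.03, SE 0.26, adjusted p = 0.000677). Nr4a1, which encodes Nur77, lay at 9.53 and 9.03 in RIP-OVAhi, against 7.01 in Rag (difference 2.28, SE 0.23, adjusted p = 0.0032). For all 3 genes the Rag array was the lowest of the 7 arrays and the RIP-OVAhi arrays were the highest.

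The promoters of the 3 NR4A genes are shown because the genes rose together. Each window runs from 250 bases before to 50 after the RefSeq start in GRCm38.p6, and capitals mark each TGACG, the half-site of the cAMP response element, searched on both strands. They lie at chr15:101266596-101266895 (+) for Nr4a1, chr2:57123954-57124253 (-) for Nr4a2 and chr4:48045055-48045354 (+) for Nr4a3.
Nr4a1: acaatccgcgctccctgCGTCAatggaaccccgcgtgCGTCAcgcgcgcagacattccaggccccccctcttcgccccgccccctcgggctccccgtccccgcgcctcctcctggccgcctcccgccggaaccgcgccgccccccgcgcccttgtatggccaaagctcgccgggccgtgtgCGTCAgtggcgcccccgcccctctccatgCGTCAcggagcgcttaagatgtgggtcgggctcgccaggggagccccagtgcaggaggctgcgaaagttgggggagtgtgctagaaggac
Nr4a2: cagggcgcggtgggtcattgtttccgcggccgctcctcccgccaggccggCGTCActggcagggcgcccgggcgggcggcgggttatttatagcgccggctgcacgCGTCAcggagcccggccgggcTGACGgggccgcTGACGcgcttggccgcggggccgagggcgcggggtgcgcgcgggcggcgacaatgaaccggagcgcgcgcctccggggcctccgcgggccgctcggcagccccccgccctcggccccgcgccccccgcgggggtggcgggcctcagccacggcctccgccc
Nr4a3: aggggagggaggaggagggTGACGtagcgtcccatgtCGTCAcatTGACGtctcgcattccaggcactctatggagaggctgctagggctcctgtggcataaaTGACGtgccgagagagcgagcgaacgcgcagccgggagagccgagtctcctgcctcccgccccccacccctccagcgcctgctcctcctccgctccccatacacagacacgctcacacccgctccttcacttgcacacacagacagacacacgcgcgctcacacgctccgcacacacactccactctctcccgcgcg
Each window holds the half-site 4 times. At least 1 half-site was in 20.8% of all 32851 promoter windows, in 41.4% of those of DNA replication genes and in 29.6% of those of mitosis genes. The share of windows that hold it 4 times was not counted. A match in these letters is a description and not a bound site.

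Of 18 tested genes of T cell receptor signalling and response, 8 rose and 1 fell, with a median difference of 0.46 against 0.02 over all genes. The risen genes were the 3 NR4A genes, Egr1, Egr2, Egr3, Nab2 and Rgs16. Egr2, a transcription factor needed for anergy, lay at 10.66 and 10.28 in RIP-OVAhi, against 7.55 in Rag (difference 2.92, SE 0.19, adjusted p = 0.000738). Nab2, a co-repressor that binds EGR proteins, lay at 8.35 and 8.13 in RIP-OVAhi, compared with 5.89 in Rag (difference 2.35, SE 0.19, adjusted p = 0.00124). Rgs16, a regulator of G protein signalling, lay at 8.61 and 8.53 in RIP-OVAhi, against 3.33 in Rag (difference 5.24, SE 0.27, adjusted p = 0.000383). Rgs16 was near background in every other array as well, at 3.64 and 3.43 in OCS/LPS and 3.46 and 4.09 in naive cells. The fallen gene was Cd69, an early activation marker that also holds T cells in tissue, at -0.94. No member of the list fell without either RIP-OVAhi or either OCS/LPS array.

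Of the inhibitory receptors and the genes linked to anergy, 4 of 10 and 9 of 17 rose. Ctla4, an inhibitory receptor that competes with CD28 for its ligands, lay at 10.33 and 9.94 in RIP-OVAhi, against 2.26 in Rag. Its difference of 7.87 (SE 0.25, adjusted p = 0.000118) is at least 35.1-fold over background. The OCS/LPS arrays lay as high, at 10.22 and 9.95, and the naive arrays as low, at 2.64 and 2.29, so that the RIP-OVAhi and primed cells overlapped. Pdcd1, which encodes PD-1, lay at 8.49 and 8.38 in RIP-OVAhi, against 4.15 in Rag (difference 4.29, SE 0.18, adjusted p = 0.000244). Cd200, a ligand of an inhibitory receptor on myeloid cells, lay at 8.80 and 8.76 in RIP-OVAhi, compared with 2.69 in Rag (difference 6.09, SE 0.31, adjusted p = 0.000344). Lag3, which binds MHC class II, lay at 6.55 and 5.96 in RIP-OVAhi, against 3.01 in Rag (difference 3.25, SE 0.29, adjusted p = 0.00201). These 4 genes were the risen members among 10 tested inhibitory receptors and ligands. The 2 fallen members were Lair1, a collagen receptor with inhibitory motifs, at -2.05 (SE 0.23, adjusted p = 0.00411), and Vsir, which encodes VISTA, at -1.95. Without RIP-OVAhi replicate 1 or 2 the call of Lair1 held and that of Vsir was lost. Klrg1 stayed near background on all arrays, between 3.56 and 3.88, and was not tested.

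Of 17 tested genes associated with anergy and tolerance, 9 rose and 0 fell (median difference 0.67). Izumo1r, which encodes folate receptor 4 and marks anergic T cells, lay at 9.38 and 9.36 in RIP-OVAhi, against 2.37 in Rag (difference 7.003, SE 0.15, adjusted p = 5.45e-05), at least 20.7-fold over background. Nrp1, which encodes the semaphorin receptor neuropilin-1, lay at 10.48 and 10.02 in RIP-OVAhi, compared with 3.97 in Rag (difference 6.27, SE 0.31, adjusted p = 0.000344). Ikzf2, which encodes the Ikaros family factor Helios, lay at 12.09 and 12.28 in RIP-OVAhi, against 6.57 in Rag (difference 5.61, SE 0.23, adjusted p = 0.000236). In Izumo1r and Ikzf2 the Rag array was the lowest of all 7, below the naive arrays too. Nrn1, which encodes neuritin, lay at 7.73 and 7.16 in RIP-OVAhi against 2.997 in Rag and at most 3.03 on the 4 remaining arrays (difference 4.45, SE 0.24, adjusted p = 0.000458). Tox, a chromatin-binding factor of exhausted T cells, rose by 1.71 (SE 0.28, adjusted p = 0.0133), a rise not called without RIP-OVAhi replicate 1 or 2 (adjusted p = 0.0947 and 0.0806), nor with the median over its probe sets, where it was 0.40 (adjusted p = 0.115). The 4 smaller rises were Ikzf3 (1.11), Dgkz (0.83), Cblb (0.67) and Sh2d2a (0.64). Nt5e, the ectonucleotidase CD73, did not pass (6.60 and 6.39 in RIP-OVAhi, 6.80 in Rag, adjusted p = 0.387). The number of risen members was 4 without either RIP-OVAhi array and 5 without either OCS/LPS array, and 6 members rose and 2 fell with the median over probe sets. The rise of Nrp1 was 4.07 there.

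Ctla4 and Ikzf2 are also markers of regulatory CD4 T cells. The other 5 markers of that list lay near background on all 7 arrays, with Foxp3 between 2.34 and 2.41, Cd4 between 3.23 and 3.47 and Il2ra between 2.54 and 2.64.

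Most costimulatory receptors and ligands moved the same way, with 7 of 11 tested genes higher and 0 lower (median difference 1.54). Of the 11 differences 9 were positive, and the lowest was -1.34, in a gene that was not called. Tnfsf11, which encodes RANKL, lay at 9.78 and 9.60 in RIP-OVAhi, against 2.42 in Rag (difference 7.27, SE 0.40, adjusted p = 0.000458), at least 25.8-fold over background. Cd86, a ligand of CD28 and CTLA-4, lay at 8.17 and 8.10 in RIP-OVAhi, against 5.42 in Rag (difference 2.72, SE 0.14, adjusted p = 0.000383). Tnfrsf9, the receptor 4-1BB, rose by 2.46 (SE 0.29, adjusted p = 0.00496), and Icos by 1.85 (SE 0.17, adjusted p = 0.00215). Slamf1, a self-binding receptor, rose by 2.53 (SE 0.51, adjusted p = 0.026), a rise not called without either RIP-OVAhi or either OCS/LPS array (adjusted p up to 0.142). The remaining risen genes were Tnfsf14 (1.54) and Cd28 (1.13), and the count was 5 and 4 without RIP-OVAhi replicate 1 or 2. The rise of Tnfsf11 was 3.99 with the median over probe sets. Cd83, an immunoglobulin family receptor of activated lymphocytes and dendritic cells, lay at 9.65 and 9.53 in RIP-OVAhi, compared with 3.15 in Rag (difference 6.44, SE 0.43, adjusted p = 0.000783).

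**Figure D2:**
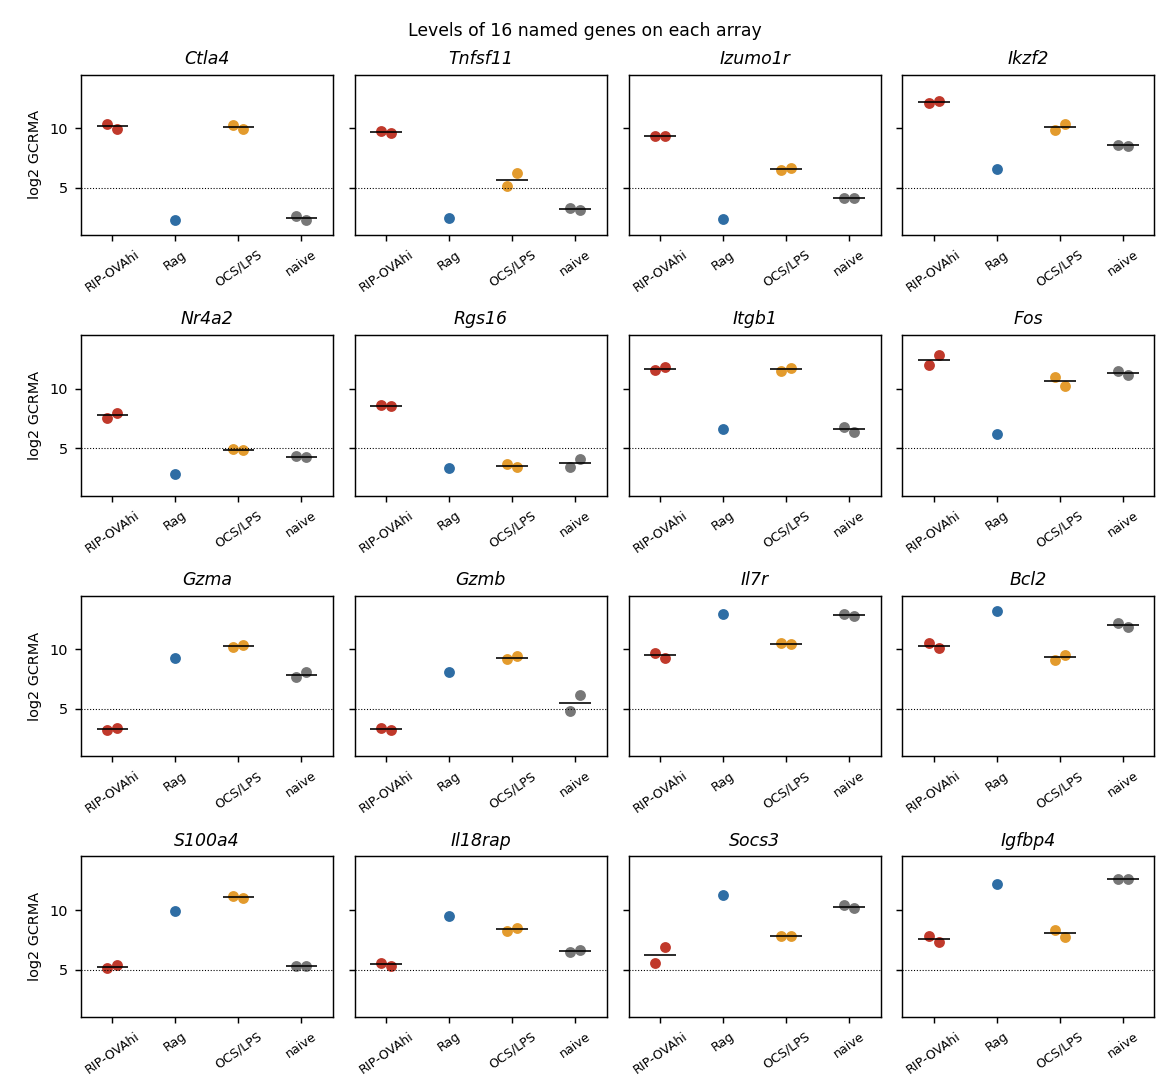
Log2 GCRMA level of 16 named genes on each array, with 1 panel a gene and the groups RIP-OVAhi, Rag, OCS/LPS and naive from left to right. Points are arrays, horizontal bars are group means where there are 2 arrays, and the dotted line marks log2 5. The Rag point lies below both RIP-OVAhi points in the upper 8 panels and above both in the lower 8.

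Several immediate early genes were higher in RIP-OVAhi, and the Rag values of Fos, Jun and Dusp1 were the lowest of the 7 arrays, naive cells included. Fos, an AP-1 subunit, lay at 11.96 and 12.85 in RIP-OVAhi, against 6.21 in Rag and 10.23 to 11.48 on the 4 remaining arrays (RIP-OVAhi minus Rag 6.19, SE 0.46, adjusted p = 0.00109). Jun, its partner, lay at 9.05 and 10.10 in RIP-OVAhi, compared with 5.09 in Rag (difference 4.48, SE 0.61, adjusted p = 0.0076), a call lost without RIP-OVAhi replicate 2 (adjusted p = 0.0536). The phosphatase genes Dusp4 (3.999, SE 0.16, adjusted p = 0.000236) and Dusp1 (3.30, SE 0.43, adjusted p = 0.0067), which switch off MAP kinases, rose with them, although the call of Dusp1 was lost with no filter on low values (adjusted p = 0.0504). Of 20 tested AP-1 and immediate early genes, 7 rose and 2 fell (median difference 0.59), and 6 and 4 rose without RIP-OVAhi replicate 1 or 2. One of the fallen genes was Fosl2, another AP-1 subunit, at 4.37 and 3.30 in RIP-OVAhi, against 8.13 in Rag (difference -4.29, SE 0.41, adjusted p = 0.00241), or -2.13 with the median over probe sets. The other was Klf6 (-1.04), and 1 of the 2 falls was called without either RIP-OVAhi or either OCS/LPS array.

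The 2 inducible HSP70 genes Hspa1a and Hspa1b were higher in RIP-OVAhi and varied between the OCS/LPS arrays. Hspa1a lay at 9.18 and 10.94 in RIP-OVAhi, against 2.36 in Rag, with 7.18 and 3.22 in the OCS/LPS arrays and 2.02 and 2.03 in the naive arrays. Its difference of 7.69 had an SE of 1.56 (adjusted p = 0.0258). The near-identical Hspa1b lay at 12.38 and 13.28 in RIP-OVAhi, compared with 7.78 in Rag (difference 5.05, SE 1.27, adjusted p = 0.0483), and the probe sets of these copies may read each other's transcript. Both calls were lost without RIP-OVAhi replicate 1 or 2, with adjusted p of 0.095 to 0.146 for Hspa1a and 0.155 to 0.216 for Hspa1b. Hspa4l, another member of the HSP70 superfamily, rose by 3.07 (SE 0.23, adjusted p = 0.0011), or by 1.70 with the median over probe sets. Of 14 tested heat shock genes 6 rose and 0 fell, and 1 rose without RIP-OVAhi replicate 1 and 1 without replicate 2.

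Among effector genes, Gzma and Gzmb fell while the secreted signals Xcl1 and Ifng rose. Gzma, a granule protease, lay at 3.25 and 3.41 in RIP-OVAhi, against 9.27 in Rag (difference -5.94, SE 0.21, adjusted p = 0.000143), and was at least 19.3-fold lower when RIP-OVAhi is set to log2 5. The RIP-OVAhi arrays were the lowest of all, since naive cells lay at 7.70 and 8.07 and OCS/LPS cells at 10.17 and 10.35. Gzma was thus near background only on the arrays from lymph node. It is also on the list of NK cell genes, and which cells carried its transcript was not tested. Gzmb, the granzyme that cleaves caspases, lay at 3.41 and 3.21 in RIP-OVAhi, against 8.10 in Rag (difference -4.79, SE 0.53, adjusted p = 0.0039). Xcl1, a chemokine for cross-presenting dendritic cells, lay at 9.07 and 9.36 in RIP-OVAhi, against 5.79 in Rag (difference 3.42, SE 0.53, adjusted p = 0.0112). Ifng, which encodes interferon-gamma, lay at 6.80 and 7.73 in RIP-OVAhi, compared with 4.25 in Rag (difference 3.02, SE 0.49, adjusted p = 0.0137). Serpinb6b, a protease inhibitor, rose by 2.43 (SE 0.33, adjusted p = 0.00765), and the chemokine gene Ccl5 fell by 1.39. The 13 tested cytotoxic genes counted 3 higher and 3 lower (median difference -0.24). The calls of Xcl1 and Serpinb6b were lost without RIP-OVAhi replicate 1 or 2 (adjusted p up to 0.0869), and that of Ifng without replicate 2 (adjusted p = 0.0738), so that 1 and 0 members rose there. Without either RIP-OVAhi array 2 members fell.

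The activating receptor gene Klrk1 (NKG2D) rose by 1.53 (SE 0.27, adjusted p = 0.0163) but stayed near background in both groups, at 3.97 and 4.12 in RIP-OVAhi, against 2.51 in Rag. Klrd1 (CD94) lay at 12.41 and 12.48 in RIP-OVAhi, compared with 13.11 in Rag (difference -0.66, SE 0.16, adjusted p = 0.043). Both calls were lost without either RIP-OVAhi array (adjusted p up to 0.109 for Klrk1 and 0.18 for Klrd1), and that of Klrd1 without either OCS/LPS array and with the replicate block (adjusted p = 0.0921). The calcium-binding S100a4, a gene of motile effector and memory T cells, lay at 5.16 and 5.34 in RIP-OVAhi, against 9.95 in Rag (difference -4.70, SE 0.17, adjusted p = 0.000155). S100a6 lay at 6.96 and 6.90 in RIP-OVAhi, against 10.93 in Rag (difference -4.00, SE 0.27, adjusted p = 0.000828). Naive cells lay near the RIP-OVAhi values in both genes, with 5.32 and 5.33 in S100a4, and the OCS/LPS arrays lay above the Rag array, at 11.21 and 10.99. The other 2 called members of the 13 tested S100, annexin and galectin genes were Anxa2 (1.74) and Anxa5 (1.18), which rose. Both lost their call without RIP-OVAhi replicate 1 or 2 (adjusted p up to 0.0913). The list had 4 falls without either OCS/LPS array and 3 with the replicate block.

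Cytokine receptor genes were mostly on the Rag side, with 2 higher and 7 lower of 18 tested (median difference -0.40). Il7r, the receptor for interleukin-7, lay at 9.69 and 9.30 in RIP-OVAhi, compared with 13.01 in Rag (difference -3.52, SE 0.20, adjusted p = 0.000504). Naive cells lay at 12.94 and 12.78, next to the Rag value. The paired chains of the interleukin-18 receptor both fell: Il18rap lay at 5.57 and 5.31 in RIP-OVAhi, against 9.48 in Rag (difference -4.04, SE 0.20, adjusted p = 0.000344). Il18r1 lay at 6.16 and 4.90 in RIP-OVAhi, against 9.94 in Rag (difference -4.41, SE 0.67, adjusted p = 0.0106), a call lost without replicate 2 (adjusted p = 0.0621). Il6ra fell by 2.28 (SE 0.39, adjusted p = 0.0161), with smaller falls of Il12rb1 (-1.37), Ifngr1 (-1.28) and Il17ra (-0.93). Il2rb, a chain of the receptors for interleukin-2 and interleukin-15, rose by 1.76 (SE 0.27, adjusted p = 0.0113), and the shared signalling chain gene Il6st by 0.81. The calls of Il6ra and Il2rb were lost without RIP-OVAhi replicate 1 or 2 (adjusted p up to 0.106 and 0.0837), and that of Il6ra without either OCS/LPS array. The fall of Il6ra was -1.14 with the median over probe sets. Over the list, 4 and 3 members fell without RIP-OVAhi replicate 1 or 2, 4 without either OCS/LPS array, and 0 rose without either RIP-OVAhi array.

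Of 10 tested SOCS, Pim and STAT feedback genes 1 rose and 2 fell. Socs3, a feedback inhibitor of cytokine signalling, lay at 5.56 and 6.92 in RIP-OVAhi, against 11.25 in Rag (difference -5.01, SE 0.51, adjusted p = 0.00329). Pim1, a kinase induced by cytokines, lay at 7.85 and 8.14 in RIP-OVAhi, against 10.05 in Rag, above all 6 other arrays (difference -2.06, SE 0.24, adjusted p = 0.0049). Bcl6, a repressor that opposes terminal effector fate, rose by 1.83 (SE 0.26, adjusted p = 0.00834). Pim1 differed by -1.16 and Bcl6 by 0.91 with the median over probe sets.

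Bcl2 and a set of quiescence genes were lower in RIP-OVAhi. Bcl2, an inhibitor of mitochondrial apoptosis, lay at 10.50 and 10.15 in RIP-OVAhi, compared with 13.24 in Rag, the highest of the 7 arrays (difference -2.92, SE 0.26, adjusted p = 0.00206). Bcl2l11, which encodes its antagonist Bim, lay at 10.72 and 10.68 in RIP-OVAhi, against 9.58 in Rag (difference 1.11, SE 0.22, adjusted p = 0.0255). The second BH3-only gene called was Bbc3, which encodes Puma and fell by 1.45 (SE 0.19, adjusted p = 0.00629). Apaf1, the scaffold of the apoptosome, rose by 0.78 (SE 0.18, adjusted p = 0.0381). In all 2 of 14 tested pro-apoptotic genes rose and 1 fell, and without either RIP-OVAhi array 0 rose and 0 fell, with adjusted p up to 0.132 for Bcl2l11, 0.0602 for Bbc3 and 0.182 for Apaf1. Without either OCS/LPS array and with the median over probe sets 0 rose (adjusted p = 0.0698 for Bcl2l11 and 0.108 for Apaf1 in that setting), and with the replicate block the call of Apaf1 was lost (adjusted p = 0.068). Of 8 tested survival genes Bcl2 fell and Birc5, which also acts in mitosis, rose by 2.66, a call lost without either RIP-OVAhi or either OCS/LPS array (adjusted p up to 0.114). The death receptor pathway had 3 of 8 genes higher, namely Tnfrsf1b (0.75), Tradd (0.65) and Traf2 (0.84), and 0 were called without either RIP-OVAhi or either OCS/LPS array. With the replicate block 0 were called (adjusted p of 0.0594 to 0.0923), and with the median over probe sets 1 was. Fas did not pass (8.07 and 8.07 in RIP-OVAhi, 8.52 in Rag, adjusted p = 0.418). Beside these list counts, 9.58% of all tested genes rose and 6.93% fell.

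Of 23 tested naive and quiescence genes 0 rose and 10 fell (median difference -0.61). Beside Il7r and Bcl2, these included Igfbp4, an IGF-binding protein gene of naive CD8 T cells, at 7.85 and 7.31 in RIP-OVAhi, against 12.16 in Rag (difference -4.58, SE 0.32, adjusted p = 0.00097). The naive arrays lay at 12.60 and 12.60 and the OCS/LPS arrays at 8.34 and 7.72. Klf3, a Krüppel-like repressor, fell by 1.80 (SE 0.18, adjusted p = 0.00279). Tsc22d3, a glucocorticoid-induced gene, fell by 2.04 (SE 0.34, adjusted p = 0.015), and Klf2, which maintains quiescence and lymph node homing, by 0.98 (SE 0.21, adjusted p = 0.0294). The calls of Tsc22d3 and Klf2 were lost without RIP-OVAhi replicate 1 or 2 (adjusted p up to 0.101 and 0.148), that of Tsc22d3 without either OCS/LPS array and that of Klf2 with the replicate block (adjusted p = 0.0625). Tsc22d3 fell by 0.95 with the median over probe sets. Lef1 did not pass (10.38 and 10.63 in RIP-OVAhi, 10.72 in Rag, adjusted p = 0.449). The list had 4 falls without either RIP-OVAhi array and 6 without either OCS/LPS array.

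Transcription factors of effector and memory fate were led by Irf4, whose level follows the strength of T cell receptor signalling. Irf4 lay at 8.57 and 8.41 in RIP-OVAhi, compared with 2.13 in Rag (difference 6.36, SE 0.33, adjusted p = 0.000363), at least 11.3-fold over background. Myb, a progenitor-associated factor, lay at 11.88 and 11.58 in RIP-OVAhi, against 8.58 in Rag (difference 3.15, SE 0.33, adjusted p = 0.00352). Id3 (1.91, SE 0.37), Irf8 (1.81, SE 0.25) and Eomes (0.78, SE 0.18), a T-box factor of memory cells, also rose, and these 3 calls were lost without RIP-OVAhi replicate 1 or 2 (adjusted p up to 0.136, 0.066 and 0.173). Those of Id3 and Eomes were also lost without either OCS/LPS array, and that of Eomes with the replicate block (adjusted p = 0.0759). Tbx21, which encodes T-bet, did not pass (8.91 and 9.04 in RIP-OVAhi, 9.13 in Rag, adjusted p = 0.567), nor did Id2 (10.43 and 10.37 in RIP-OVAhi, 9.98 in Rag), which differed by 0.42 and by -0.20 with the median over probe sets. Of 11 tested factors 5 rose and 0 fell, with 2 risen without either RIP-OVAhi array and 3 without either OCS/LPS array. Zbtb32, a zinc finger repressor outside these lists, lay at 9.44 and 9.03 in RIP-OVAhi, compared with 4.33 in Rag (difference 4.90, SE 0.57, adjusted p = 0.00473), a call lost without replicate 1 (adjusted p = 0.0501). Irf4 rose by 3.84 and Zbtb32 by 2.45 with the median over probe sets.

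Homing and adhesion genes showed 4 rises and 1 fall among 18 tested, against 9.58% and 6.93% of all tested genes. Itgb1, the beta chain of the VLA integrins, lay at 11.54 and 11.80 in RIP-OVAhi, against 6.63 in Rag (difference 5.04, SE 0.24, adjusted p = 0.000326). With the median over its probe sets the difference was 1.18 and not called (adjusted p = 0.0644). Its OCS/LPS arrays lay at 11.49 and 11.78 and its naive arrays at 6.78 and 6.37, so that each group sat near 1 of the compared groups. Cxcr5, the receptor that guides lymphocytes to B cell follicles, lay at 9.29 and 9.20 in RIP-OVAhi, compared with 4.73 in Rag (difference 4.51, SE 0.23, adjusted p = 0.000344). Cd44, a receptor of antigen-experienced T cells, lay at 11.86 and 11.84 in RIP-OVAhi, against 9.89 in Rag (difference 1.96, SE 0.25, adjusted p = 0.0067), with 7.67 and 8.23 in naive cells. The integrin gene Itgal rose by 0.76 and the selectin ligand gene Selplg fell by 0.62. The calls of Cd44, Itgal and Selplg were lost without RIP-OVAhi replicate 1 or 2 (adjusted p up to 0.0614, 0.171 and 0.184), which left 2 rises and 0 falls, and those of Itgal and Selplg without either OCS/LPS array and with the replicate block (adjusted p = 0.067 and 0.104). Cxcr3 did not pass and lay high in both groups, at 11.33 and 11.31 in RIP-OVAhi against 11.13 in Rag, with 8.27 and 8.32 in naive cells. Other genes of the list did not pass. Ccr7 lay at 11.12 and 10.82 in RIP-OVAhi, against 11.29 in Rag, S1pr1 at 10.06 and 9.82 in RIP-OVAhi, compared with 10.86 in Rag, Itgae at 10.13 and 10.39 in RIP-OVAhi, against 10.26 in Rag, and Ccr9 at 7.80 and 7.92 in RIP-OVAhi, against 6.06 in Rag.

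Mitosis and DNA replication genes were higher in RIP-OVAhi, although both groups were sorted as divided cells. All 29 tested mitosis genes rose, by 1.42 to 3.88, with a median difference of 2.65. Of 29 tested DNA replication genes 27 rose and 0 fell, with a median of 1.70. The median level of the mitosis genes was 9.80 in RIP-OVAhi, against 7.12 in Rag, with 10.5 in OCS/LPS and 4.04 in naive cells, so that the Rag array lay between naive and the antigen-driven groups. Ttk, a kinase of the spindle checkpoint, lay at 7.90 and 8.09 in RIP-OVAhi, against 4.12 in Rag (difference 3.88, SE 0.36, adjusted p = 0.00223). Nuf2, a kinetochore protein gene, lay at 9.73 and 10.00 in RIP-OVAhi, compared with 6.38 in Rag (difference 3.49, SE 0.21, adjusted p = 0.000548). Aurka, a kinase of the centrosome, rose by 3.51 (SE 0.68, adjusted p = 0.023), a rise not called without either RIP-OVAhi or either OCS/LPS array (adjusted p up to 0.136). Among replication genes, Tk1, thymidine kinase of the salvage pathway, lay at 9.61 and 9.63 in RIP-OVAhi, against 5.64 in Rag (difference 3.98, SE 0.41, adjusted p = 0.0034). Mcm10, which helps to start replication forks, lay at 8.02 and 8.21 in RIP-OVAhi, compared with 4.80 in Rag (difference 3.31, SE 0.21, adjusted p = 0.000689). Cdc45, part of the replicative helicase, rose by 3.70 (SE 0.22, adjusted p = 0.000563), while its other tested probe set differed by -0.01. Ttk rose by 2.37, Aurka by 1.76 and Cdc45 by 1.85 with the median over probe sets. Without RIP-OVAhi replicate 1 or 2, 14 and 14 mitosis genes and 13 and 12 replication genes rose. In a bulk sample, fewer cells in cycle and less cell cycle RNA per cell cannot be told apart.

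**Figure D3:**
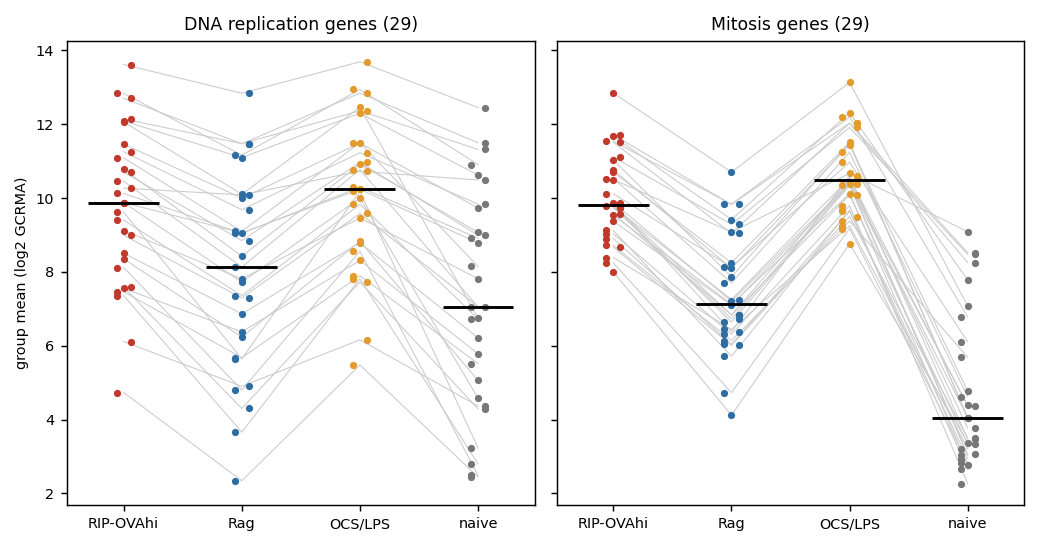
Group mean level (log2 GCRMA) of 29 DNA replication genes (left) and 29 mitosis genes (right) in RIP-OVAhi, Rag, OCS/LPS and naive cells. Each point is a gene, grey lines join its groups and black bars are medians; the mitosis median is 9.80 in RIP-OVAhi, against 7.12 in Rag.

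Promoters of called genes are shown for these groups because their members rose together. Only called genes with a single promoter window were eligible, and genes on 1 chromosome were left out. The mitosis genes shown are the 2 with the largest rise among those whose window holds both motifs searched. The replication gene is the 1 with the largest rise among those with its motif. In Ttk (chr9:83834439-83834738, +) and Aurka (chr2:172370521-172370820, -) capitals mark TTTGAA, the cell cycle homology region element, on either strand, and CCAAT, on either strand. In Rfc4 (chr16:23127681-23127980, -), a clamp loader subunit gene at 10.68 and 10.88 in RIP-OVAhi, compared with 8.43 in Rag, they mark TTCCCGC, an E2F site, on either strand. The windows come from RefSeq in GRCm38.p6, and the marked motifs do not overlap.
Ttk: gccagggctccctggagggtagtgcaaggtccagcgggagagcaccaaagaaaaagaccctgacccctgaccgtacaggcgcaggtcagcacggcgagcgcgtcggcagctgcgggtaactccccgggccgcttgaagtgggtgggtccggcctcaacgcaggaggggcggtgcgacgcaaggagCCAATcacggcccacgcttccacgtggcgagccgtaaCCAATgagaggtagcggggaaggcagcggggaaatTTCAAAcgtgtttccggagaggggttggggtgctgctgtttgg
Aurka: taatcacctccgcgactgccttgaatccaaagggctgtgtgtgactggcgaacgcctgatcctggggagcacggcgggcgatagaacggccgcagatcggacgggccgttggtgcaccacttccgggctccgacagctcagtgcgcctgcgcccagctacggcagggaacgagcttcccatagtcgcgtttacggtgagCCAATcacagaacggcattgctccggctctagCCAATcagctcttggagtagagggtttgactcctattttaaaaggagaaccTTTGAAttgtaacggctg
Rfc4: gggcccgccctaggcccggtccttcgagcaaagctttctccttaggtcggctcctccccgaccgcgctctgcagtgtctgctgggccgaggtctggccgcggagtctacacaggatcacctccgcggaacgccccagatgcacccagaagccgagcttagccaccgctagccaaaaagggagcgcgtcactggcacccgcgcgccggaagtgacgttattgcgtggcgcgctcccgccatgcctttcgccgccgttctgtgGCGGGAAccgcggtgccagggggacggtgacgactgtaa
TTTGAA was in 20 of the 27 windows of mitosis genes (74.1%), against 17.9% of all windows, and CCAAT in 22 (81.5%), against 37.4%. TTCCCGC was in 12 of 29 windows of replication genes (41.4%), against 4.60% of all windows, and in 0 of the 27 mitosis windows.

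The G1 cyclin and CDK inhibitor list had 2 rises and 1 fall among 15 tested genes, against 9.58% and 6.93% of all tested genes. Ccne2, a cyclin of the G1 to S transition, rose by 1.78 (SE 0.19, adjusted p = 0.00381) and Ccne1 by 0.84 (SE 0.20, adjusted p = 0.0451). Cdk6, a G1 kinase, fell by 1.23 (SE 0.22, adjusted p = 0.0182). The calls of Ccne1 and Cdk6 were lost without RIP-OVAhi replicate 1 or 2 (adjusted p up to 0.195 and 0.112), and that of Ccne1 without either OCS/LPS array and with the replicate block (adjusted p = 0.0843). The list had 5 rises and 2 falls without the naive arrays, and 4 rises and 1 fall with the median over probe sets.

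Of 23 tested Myc and ribosome biogenesis genes 0 rose and 8 fell, by 0.63 to 0.94 (median difference -0.52), led by Wdr12, Ppan and Rrp9. No member fell without either RIP-OVAhi array, and 1 fell without either OCS/LPS array, with adjusted p up to 0.192 for Wdr12. With the replicate block 3 fell (adjusted p = 0.0727 for Ppan), and with the median over probe sets 5 fell, with Wdr12 at -2.42. Myc itself did not pass (8.77 and 8.91 in RIP-OVAhi, 9.49 in Rag, adjusted p = 0.106). Of 15 glycolysis genes 0 rose and 1 fell, namely Pdk1 (-1.03), a kinase that keeps pyruvate out of mitochondria, whose call was lost without RIP-OVAhi replicate 1 or 2 (adjusted p up to 0.0911). None of 25 oxidative phosphorylation genes, 8 GIMAP genes or 18 cytosolic ribosomal protein genes was called by limma, against 16.5% of all tested genes. At an unadjusted p under 0.05 the counts were 0, 1 and 1, against 2708 over all genes. Without the naive arrays, 3 glycolysis, 2 oxidative phosphorylation and 1 ribosomal protein gene rose, and 1 GIMAP gene fell. With the median over probe sets 2 glycolysis genes and 1 ribosomal protein gene rose, and 1 GIMAP gene fell. Of 21 tRNA synthetase and ATF4 genes, Psat1, of serine synthesis, rose by 1.42 (SE 0.17, adjusted p = 0.0057).

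Of 23 tested genes of sterol and fatty acid synthesis 7 rose and 1 fell (median difference 0.44). Sqle, squalene epoxidase, rose by 1.81 (SE 0.35, adjusted p = 0.0236), and the desaturase gene Scd2 by 1.72 (SE 0.16, adjusted p = 0.00215). With the median over its probe sets Scd2 differed by 0.71 and was not called (adjusted p = 0.427). Abca1, which exports cholesterol, lay at 6.12 and 5.70 in RIP-OVAhi, against 9.32 in Rag (difference -3.41, SE 0.22, adjusted p = 0.000738), the direction opposite to the synthesis genes. The number of risen genes was 1 without either RIP-OVAhi array, 2 without either OCS/LPS array, 4 with the replicate block and 10 without the naive arrays, and the call of Sqle was lost without either RIP-OVAhi or either OCS/LPS array (adjusted p up to 0.131). Of 20 endoplasmic reticulum stress genes 2 rose, Sdf2l1 (1.66) and Pdia6 (1.003), against 9.58% of all tested genes. In the same list 1 fell, Ern1 (-1.12), against 6.93%, and its other tested probe set differed by 0.03. All 3 calls were lost without RIP-OVAhi replicate 1 or 2 (adjusted p up to 0.08, 0.158 and 0.0813), and that of Pdia6 without either OCS/LPS array and with the median over probe sets (0.51, adjusted p = 0.0923). Without the naive arrays 7 members rose and 3 fell.

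Interferon-stimulated genes counted 0 higher and 6 lower of 29 tested (median difference -0.39). Oasl2, an antiviral gene, lay at 4.94 and 5.30 in RIP-OVAhi, against 7.46 in Rag (difference -2.34, SE 0.19, adjusted p = 0.00128), with 7.27 and 7.25 in naive and 2.86 and 2.85 in OCS/LPS cells. The guanylate-binding gene Gbp2 fell by 1.36 (SE 0.19, adjusted p = 0.00871) and the immunity-related GTPase gene Igtp by 1.04 (SE 0.21, adjusted p = 0.0252). Both calls were lost without RIP-OVAhi replicate 1 or 2 (adjusted p up to 0.0688 and 0.134). Over the list, 1 and 2 members fell without RIP-OVAhi replicate 1 or 2, 3 without either OCS/LPS array or with the replicate block, and 10 without the naive arrays.

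**Figure D4:**
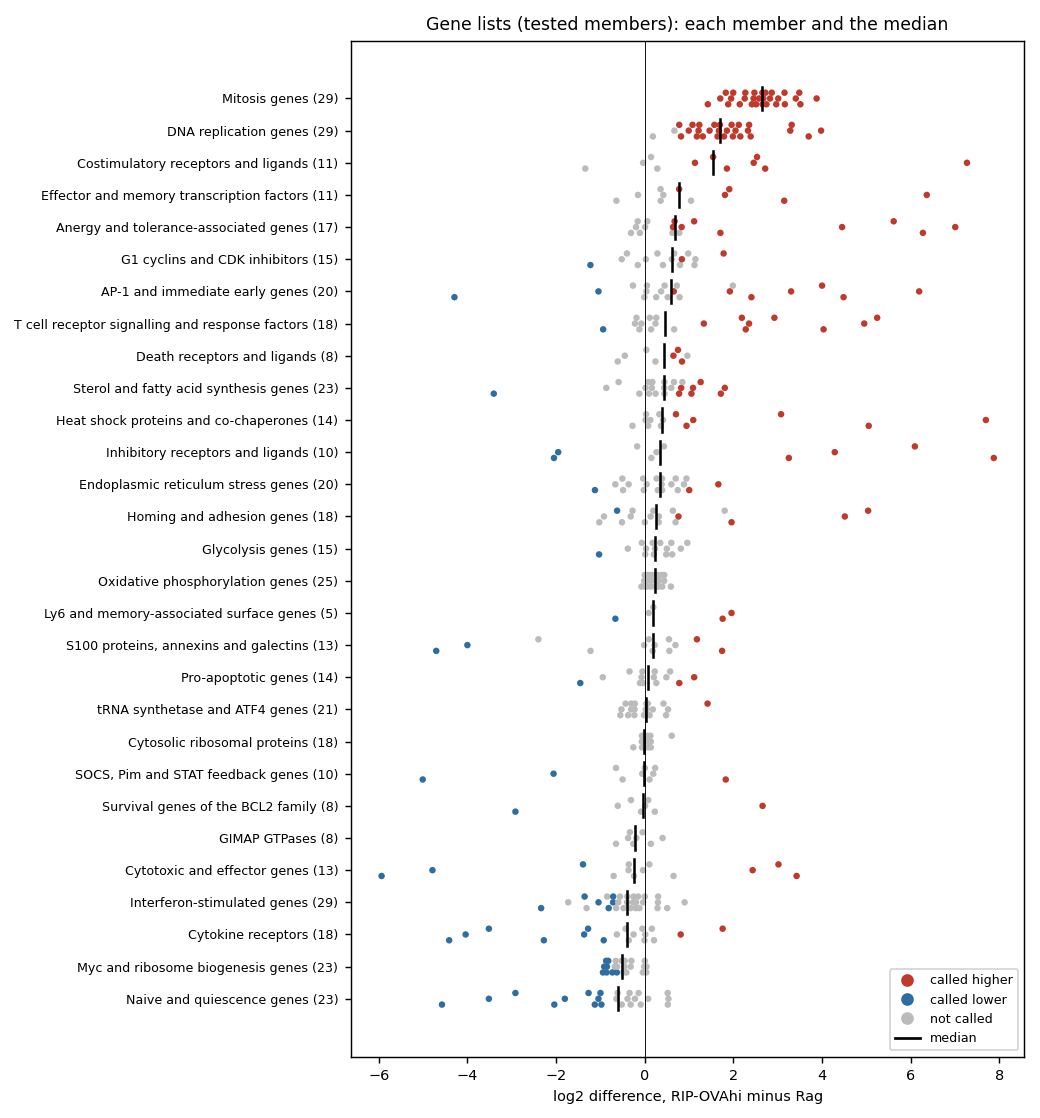
Log2 difference, RIP-OVAhi minus Rag, of each tested member of the 29 programme lists with at least 5 tested members (number in brackets), ordered by median. Red points were called higher, blue points lower and grey points not called, and black bars are medians, from 2.65 for mitosis genes to -0.61 for naive and quiescence genes.

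Markers of other cells differed between the arrays. The Rag array carried macrophage transcripts that were near background elsewhere: Csf1r, the receptor for macrophage colony-stimulating factor, lay at 2.44 and 2.50 in RIP-OVAhi, against 8.51 in Rag (difference -6.04, SE 0.14, adjusted p = 5.45e-05). Slc40a1, the iron exporter of macrophages, lay at 2.31 and 2.17 in RIP-OVAhi, against 7.81 in Rag (difference -5.57, SE 0.19, adjusted p = 0.000143). Of 23 macrophage and monocyte genes on the array, 1 reached log2 5 on each RIP-OVAhi array, against 10 on the Rag array, 3 and 4 on the OCS/LPS arrays and 3 and 5 on the naive arrays. Csf1r differed by -3.44 and Slc40a1 by -3.25 with the median over probe sets. Of the 10 tested, 8 were lower in RIP-OVAhi and 0 higher; the other 13, C1qa and Cd68 among them, were near background on all arrays. The summed level of that list is set by Ctss and hardly differed, at 13.7 and 13.6 in RIP-OVAhi and 13.6 in Rag.

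Lyz1, a lysozyme gene, and H2-Aa, an MHC class II gene, were near background in RIP-OVAhi and above it on all arrays from spleen. Lyz1 lay at 2.94 and 3.36 in RIP-OVAhi, against 8.46 in Rag and 7.40 to 8.67 on the 4 remaining arrays. H2-Aa lay at 1.77 and 2.74 in RIP-OVAhi, against 7.63 in Rag (difference -5.37, SE 0.42, adjusted p = 0.00116), and H2-Ab1, H2-Eb1 and Cd74 fell too. The call of Cd74 was lost without RIP-OVAhi replicate 1 or 2 (adjusted p up to 0.0944), and 2 members fell with the median over probe sets. H2-Oa, which T cells may also express, went the other way, at 9.33 and 9.43 in RIP-OVAhi, compared with 6.85 in Rag (difference 2.54, SE 0.26, adjusted p = 0.00328). Of 14 erythroid and platelet genes on the array 5 were tested and 3 fell: Alas2 lay at 1.79 and 1.79 in RIP-OVAhi, against 6.65 in Rag, Slc4a1 at 5.05 and 5.23 in RIP-OVAhi, compared with 8.28 in Rag, and Car2 at 6.50 and 7.14 in RIP-OVAhi, against 8.67 in Rag. The call of Alas2 was lost without either RIP-OVAhi array (adjusted p up to 0.0631) and that of Car2 without replicate 1 (adjusted p = 0.0669), and Slc4a1 differed by -4.94 with the median over probe sets. The list's summed level was 10.97 and 11.05 in RIP-OVAhi, against 12.1 in Rag. That sum leaves out probe sets annotated to several genes, and its Hba-a1 probe set was near background on all arrays (2.44 to 2.48). That 1 probe set does not show that globin RNA was absent, since probe sets annotated to several genes were not counted. The largest falls among probe sets without a single symbol are given with the results flagged for a closer look. Of the 7 tested B cell and plasma cell genes 1 rose, Cd22 (2.50, SE 0.30, adjusted p = 0.00539, and 1.25 with the median over probe sets). Among NK cell genes, Ncr1 was near background on all arrays (2.26 to 2.31), and Klra8 lay at 3.23 and 3.38 in RIP-OVAhi, compared with 6.42 in Rag (adjusted p = 0.0454, lost without either RIP-OVAhi array, up to 0.186). Of the 4 tested NK cell genes 2 fell, Klra8 and Gzma, and 1 rose, Eomes. Neither of 2 tested dendritic cell genes was called. The single tested neutrophil gene, S100a8, lay at 2.80 and 2.86 in RIP-OVAhi, against 5.23 in Rag (difference -2.40, adjusted p = 0.0611), and was called lower with the replicate block and without either OCS/LPS array. The single tested stroma gene, Pecam1, lay at 5.52 and 5.57 in RIP-OVAhi, against 4.57 in Rag (adjusted p = 0.05005), and was called higher without the naive arrays. All 9 pancreas genes on the array were near background everywhere, at no more than 4.80. The part of these cell types in the genes that were high only in Rag, such as Drc1 (2.31 and 2.34 in RIP-OVAhi, 7.95 in Rag) and Aqp9 (2.33 and 2.37 in RIP-OVAhi, 6.60 in Rag), was not tested.

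**Figure D5:**
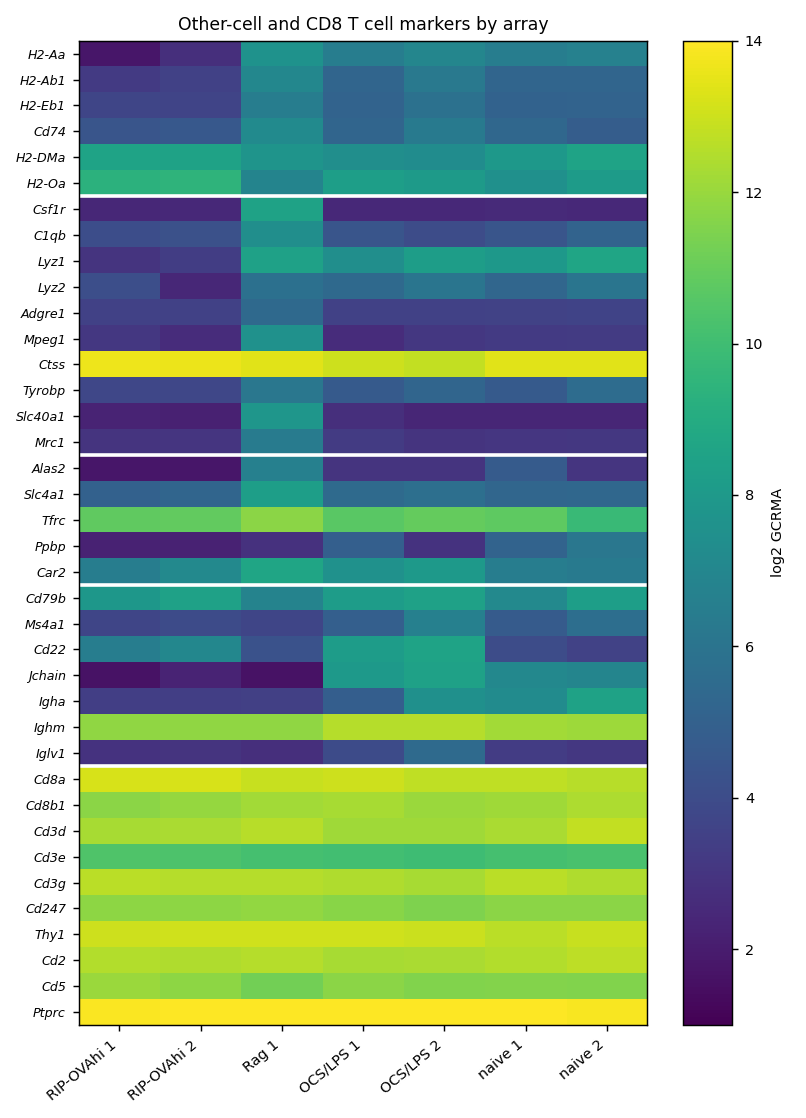
Log2 GCRMA level (colour) on each of the 7 arrays (columns) of the tested markers of other cells and of CD8 T cells (rows), with white lines between lists. From the top the lists are MHC class II, macrophage and monocyte, erythroid and platelet, B cell and plasma cell, and CD8 T cell identity; Csf1r, Slc40a1 and Mpeg1 are bright in the Rag column only.

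Among the remaining leading falls, 5830411N06Rik lay at 4.14 and 4.15 in RIP-OVAhi, against 10.66 in Rag and 5.57 and 6.59 in naive cells (difference -6.52, SE 0.39, adjusted p = 0.000552). Cd163l1, a scavenger receptor family gene of gamma-delta T cells, lay at 2.30 and 3.18 in RIP-OVAhi, against 8.61 in Rag (difference -5.86, SE 0.48, adjusted p = 0.00143). App, which encodes the amyloid precursor protein, lay at 2.90 and 2.64 in RIP-OVAhi, against 6.65 in Rag, with 7.03 and 6.72 in naive cells (difference -3.89, SE 0.23, adjusted p = 0.000541). Apol11b, an apolipoprotein L family gene, fell by 4.95 and Adgre4, an adhesion receptor gene of myeloid cells, by 3.85. Among the remaining leading rises, H3f3b, a gene of the replacement histone H3.3, lay at 9.71 and 9.88 in RIP-OVAhi, compared with 4.52 in Rag, while the 4 remaining arrays lay between 8.80 and 9.11 (difference 5.28, SE 0.15, adjusted p = 0.000109). That value rests on 1 probe set. Capn3, a calpain protease gene, rose by 4.61 (SE 0.27, adjusted p = 0.000504).

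The groups outside the comparison showed where these differences lay. Of the 584 genes at least 2-fold higher in RIP-OVAhi, the naive mean was within 1 log2 unit of Rag and not of RIP-OVAhi for 317 and of RIP-OVAhi and not of Rag for 29. The OCS/LPS mean was within 1 unit of RIP-OVAhi and not of Rag for 406 and of Rag and not of RIP-OVAhi for 49. The OCS/LPS mean was near both for 80 and the naive mean for 88. For 130 the naive mean lay outside the range of RIP-OVAhi and Rag, over 1 unit from each. Of the 355 genes at least 2-fold lower in RIP-OVAhi, the naive mean was near Rag alone for 170, near RIP-OVAhi alone for 57 and near both for 105. The OCS/LPS mean of these genes was near RIP-OVAhi alone for 208, near Rag alone for 34 and near both for 92. In 49 genes both RIP-OVAhi arrays lay more than 1 unit above the other 5 arrays, and Rgs16, Nrn1, Tnfsf11, Izumo1r and Nr4a2 are among them. In 20 genes both lay more than 1 unit below, and 7 of these are markers of other cells. Gzma, also on the list of NK cell genes, and Gzmb are among the 20. The Rag array lay more than 1 unit above all 6 others in 38 genes, 8 of them markers of other cells, and more than 1 unit below in 28 genes.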

How the data were processed

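RNA was measured on Affymetrix mouse arrays, and the deposited table holds log2 values of 45101 probe sets on 7 arrays. The authors made these log2 values with GCRMA, per the submitters' processing notes, with the GCRMA version not given in the sources used here. The method adjusts background by probe sequence and quantile-normalizes the arrays together, which hides a shift common to most genes. Per the labels' protocols, RNA was extracted with Trizol and amplified in a two-cycle labelling.

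Gene symbols came from the platform annotation: 34958 probe sets had 1 symbol, 932 several and 9211 none. Each gene was represented by the brightest of its probe sets on average, and tested at log2 5 or more on at least 1 array. limma 3.58.1 (R 4.3.3) fitted 1 mean per group over all 7 arrays, with 3 residual and 2.84 prior degrees of freedom, and p-values were adjusted by Benjamini-Hochberg over 8371 genes. SE is the moderated standard error. Against a group near background, "at least" folds set that group to log2 5. The number of arrays limits the precision. The fit was tested on simulated data with 200 changed genes among 8371. It recovered 21.15% of changes of 1 log2 unit and 82.1% of changes of 2, with 5.75 false calls on average. A gene that was not called may thus still differ.

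Named were the 15 largest called rises and falls outside other-cell lists, up to 5 members per list, 40 fixed genes and detected other-cell markers; Rfc4 was added for its promoter. The members and lists were chosen with earlier results of these data known. Arrays with the same replicate number deviated together over all genes (r = 0.334, 0.128 and 0.316 between the 3 replicated groups; r = 0.184, -0.054 and -0.012 off the X and Y chromosomes). Of 4 sex-linked genes, 3 lay at log2 5 or more on each replicate 1 array, Rag included, and 1, 2 and 1 did on the replicate 2 arrays of RIP-OVAhi, OCS/LPS and naive cells. The labels state no pairing, so the main fit has no block. Values with the replicate number as a block stand beside many of the results they change. With the block, 7 anergy, 4 heat shock, 5 AP-1 and 26 DNA replication genes rose, and 6 cytokine receptor genes fell. Alternatives were a replicate block, other arrays in the fit, each array but the Rag array left out, other filters, the median over probe sets, centring and another variance prior.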

Additional observations from a re-analysis of the deposited data

Results flagged for a closer look

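Probe sets without a single gene symbol were not part of the comparison, and of the 2390 that reached log2 5, 100 were called higher and 252 lower in RIP-OVAhi. Below are the 2 largest rises and the 2 largest falls among them. Probe set 1433169_at, which has no symbol, lay at 6.74 and 6.79 in RIP-OVAhi, against 1.97 in Rag and between 1.98 and 2.01 on the 4 remaining arrays (difference 4.80, SE 0.15). Probe set 1416076_at, also without a symbol, lay at 8.37 and 8.81 in RIP-OVAhi, against 4.09 in Rag (difference 4.51, SE 0.33), with 9.81 and 9.94 in OCS/LPS cells. Probe set 1428361_x_at, annotated to several genes, lay at 1.24 and 1.47 in RIP-OVAhi, against 13.2 in Rag and 11.9 and 12.0 in naive cells (difference -11.80, SE 0.25). Probe set 1452757_s_at, also annotated to several genes, lay at 1.72 and 1.73 in RIP-OVAhi, against 13.4 in Rag (difference -11.66, SE 0.21). Both of these were far above background on every array from spleen and near background on both arrays from lymph node.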

How the results depend on the processing

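The 802 higher and 580 lower genes became 613 and 416 with a replicate block, 1405 and 1125 without the naive arrays, and 509 and 452 with no filter. With the 3 arrays alone limma called 0 and 0, with 1876 and 1486 at an unadjusted p under 0.05. Leaving out 1 array gave 231 to 1405 higher and 140 to 1125 lower genes. The cause of these changes was not tested. Fewer arrays leave fewer degrees of freedom, but the counts were higher, not lower, without either naive array. Of 134 called named genes, 57 kept their call in all 14 settings other than the 3-array fit, and 16 more in the 12 or 13 settings that gave them a value. Without a RIP-OVAhi array 58 lost it, with no filter 46, without either OCS/LPS array 27, with the replicate block 16 and with the median over probe sets 8. Over all named genes 1764 outcomes stayed on their side of the threshold, 372 lost and 8 gained a call, and 5 reversed.

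Itgae differed by 0.00, by 0.128 without RIP-OVAhi replicate 1 and by -0.13 without replicate 2, and reversed to -0.25 with the replicate block, -0.0307 with the median over probe sets and -0.00773 with centring. Id2, at 0.42, reversed to -0.20 with the median over probe sets. Of list medians, that of cytotoxic genes reversed to 0.00515 and that of dendritic cell genes to 0.00374 with no filter. The median of NK lectin receptors was 0.00 without RIP-OVAhi replicate 1 and -0.389 without replicate 2. That of sex-linked genes reversed to 0.111 with the replicate block and was -5.17 without RIP-OVAhi replicate 1 and 0.0952 without replicate 2. The single Rag array limits each result.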

Other observations

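The Rag array also stood apart in genes outside the lists, named here after their values were seen. Which cells carried their transcripts was not tested. Tec, a kinase of antigen receptor signalling, lay at 7.84 and 7.76 in RIP-OVAhi, against 10.05 in Rag, F2r, the thrombin receptor gene, at 10.41 and 10.35 in RIP-OVAhi, against 12.42 in Rag, and Samhd1, which degrades nucleotides, at 10.79 and 10.89 in RIP-OVAhi, against 12.46 in Rag. In each of these the Rag array lay more than 1 log2 unit above the 6 others.

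Both RIP-OVAhi arrays stood apart from the 5 others in further genes. Lrig1, an inhibitor of receptor tyrosine kinases, lay at 9.64 and 9.63 in RIP-OVAhi, against 6.13 in Rag, and Sox4, a transcription factor induced by TGF-beta, at 8.62 and 8.46 in RIP-OVAhi, against 5.10 in Rag. Cd7, a surface receptor of T cells, went the other way, at 7.85 and 8.39 in RIP-OVAhi, against 10.55 in Rag and 9.77 to 10.69 on the 4 remaining arrays.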
